A study of Mus musculus with 15 samples.

Results

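The genes for the proteins of the cytosolic ribosome were followed across 3 dendritic cell subsets of the mouse thymus. Members were chosen by symbol (Rpl or Rps, a number and at most a short ending, with Rplp0, Rplp1, Rplp2 and Rpsa). The S6 kinase genes and the processed pseudogene Rpl6l, which also fits the pattern, were left out. This gave 83 genes of 22165 in the table, 51 of the large subunit and 32 of the small subunit. Of these, 81 passed the filter on low counts, in a table of 11746 tested genes. Rpl39l and Rpl10l, paralogs known from testis, did not pass, with 43 counts and 1 count in all libraries together.

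All cells came from C57BL/6 mice, male and female, aged 8 to 12 weeks. The KO animals were Itgax-cre Stk11 fl/fl, in which Cre is driven by the gene for CD11c and removes the kinase LKB1 from cells that express CD11c. The WT animals served as controls. Every mouse, of either genotype, carried a B16 melanoma secreting Flt3L, which makes dendritic cells expand, and thymi were taken 9 to 12 days later. Sorting gave type 1 conventional dendritic cells (cDC1, CD8a+CD11c+MHCII+; 2 WT and 2 KO libraries), type 2 conventional dendritic cells (cDC2, CD11b+CD11c+MHCII+; 2 WT and 3 KO) and plasmacytoid dendritic cells (pDC, Siglec-H+CD11cint; 3 WT and 3 KO). The labels do not say whether replicates were separate mice, so p-values measure the spread between samples, which may be technical.

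A ribosome is built from RNA and a full set of ribosomal proteins, which cells make in matched amounts. Their mRNAs are abundant and short, and in mammals they begin with a run of pyrimidines through which mTORC1 controls their translation. LKB1 activates AMPK, which restrains mTORC1. The present data measure mRNA levels, not translation.

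Libraries held 3928164 to 12142712 counts of 3′ tags per library. Genes with at least 1 count numbered 10840 and 11500 in the cDC2 WT libraries, 12909 to 13797 in cDC2 KO, 12621 to 13144 in the 4 cDC1 libraries and 10932 to 11517 in the pDC libraries. The marker lists followed the sort: 12 pDC markers summed to 36251 to 56229 CPM (scaled by each library’s TMM-adjusted total) in pDC WT against 1104 to 2054 in the other WT libraries. The 12 cDC1 markers summed to 12795 to 12878 CPM in cDC1 WT, 3262 to 5218 in cDC2 WT and 7240 to 8677 in pDC WT, and the 12 cDC2 markers to 797 to 894 CPM in cDC2 WT against 84.8 to 149 in cDC1 WT and 574 to 627 in pDC WT. Stk11, the targeted gene, ran from 18.4 to 43.5 CPM in the KO libraries and from 34.2 to 66.8 in WT, and no comparison of it passed the threshold. Where in Stk11 the deletion lies is not given by the labels, and a 3′ tag outside it checks nothing.

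Short stretches around the transcription start, where a pyrimidine run was sought, are shown for some members named in the results. They are RefSeq starts on GRCm38.p6, 30 bases each, read on the gene's strand. Rpl27a (chr7:109519180-109519209, plus strand), Rpl28 (chr7:4792950-4792979, plus), Rps18 (chr17:33955651-33955680, minus), Rps6 (chr4:86857353-86857382, minus) and Rplp2 (chr7:141447636-141447665, plus) hold a run of at least 5 C or T bases that opens with C and begins within 10 bases of the start. Capitals mark the run in these windows of 15 bases on either side.
Rpl27a: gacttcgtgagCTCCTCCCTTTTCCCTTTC
Rpl28: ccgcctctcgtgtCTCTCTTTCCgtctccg
Rps18: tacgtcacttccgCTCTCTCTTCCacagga
Rps6: aagcggaagtcgggCCTCTTTTTCgtgacg
Rplp2: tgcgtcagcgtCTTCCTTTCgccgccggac
The listed start need not be the base where the mRNA begins, so a window without a run does not show that the mRNA lacks one. GENCODE, for example, starts Rps15 at chr10:80292453, beyond its window below. The same windows of Rps28 (chr17:33824548-33824577, minus) and Rps15 (chr10:80292416-80292445, plus) hold no such run, so nothing is in capitals.
Rps28: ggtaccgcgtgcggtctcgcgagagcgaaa
Rps15: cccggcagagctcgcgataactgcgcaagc
Rpl11 (chr4:136053374-136053403, minus) and Rpl31 (chr1:39367841-39367870, plus) are shown from 10 bases before to 20 after the start. Capitals mark CCGGAAGT, the core of an Ets factor motif. By the rule above Rpl31 also holds a run, of 7 bases, left in lower case here, and Rpl11 holds none.
Rpl11: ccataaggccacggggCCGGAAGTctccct
Rpl31: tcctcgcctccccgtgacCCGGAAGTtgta

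Promoters of 63 members could be matched. The pyrimidine run stood in 39 of them (61.9%), against 33.3% of all 27025 genes with a promoter. CCGGAAGT, on either strand between 250 bases before and 50 after the start, was found in 12 (19.0%, against 4.31% of all genes), and GGGCGG, the GC box, in 39 (61.9% against 38.2%). TATAAA was found in 7 (11.1% against 15.7%) and CACGTG, the E box bound by Myc, in 6 (9.52% against 8.09%). The reverse complement of CCGGAAGT contains CTTCC, so the Ets core and the pyrimidine run can overlap. A match is a description of these letters, not of a bound site, and a missing run may reflect where the listed start lies. The 37 tested members with the run and the 24 without had median log2 differences of −1.0 and −1.10 for cDC2 minus cDC1 in WT, −0.93 and −0.96 for pDC minus cDC1 in WT, −0.16 and −0.31 for KO minus WT in cDC1, and 0.65 and 0.51 in cDC2. For the KO effect in pDC minus that in cDC1 the medians were 0.29 and 0.58, and no pair of medians was tested.

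Taken as one quantity, the 83 genes held a share of counts that differed between groups. In cDC1 WT the share was 6.78% and 7.10%, and in cDC1 KO 6.28% and 6.35%. In cDC2 WT it was 4.17% and 4.16%, below the 5.52%, 6.10% and 5.21% of cDC2 KO. The pDC WT libraries spread widely, at 3.81%, 5.48% and 2.80%, and spanned the 4.26%, 4.60% and 4.02% of pDC KO. The cDC1 libraries of both genotypes were thus above every other library, the 2 cDC2 WT libraries lay below all 3 cDC2 KO libraries, and the pDC genotypes overlapped. Group means were 6.94% ± 0.226 (SD, n = 2) in cDC1 WT, 6.31% ± 0.0525 (n = 2) in cDC1 KO, 4.16% ± 0.00823 (n = 2) in cDC2 WT, 5.61% ± 0.456 (n = 3) in cDC2 KO, 4.03% ± 1.35 (n = 3) in pDC WT and 4.29% ± 0.290 (n = 3) in pDC KO. Without the 5 most counted members (Rpl26 and Rps9 among them) the share was 4.91% to 6.07% in cDC1, 3.22% and 3.37% in cDC2 WT, 4.21% to 4.67% in cDC2 KO and 2.04% to 3.83% in pDC. In such bulk samples fewer cells of a type and less RNA per cell cannot be told apart.

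**Figure D1:**
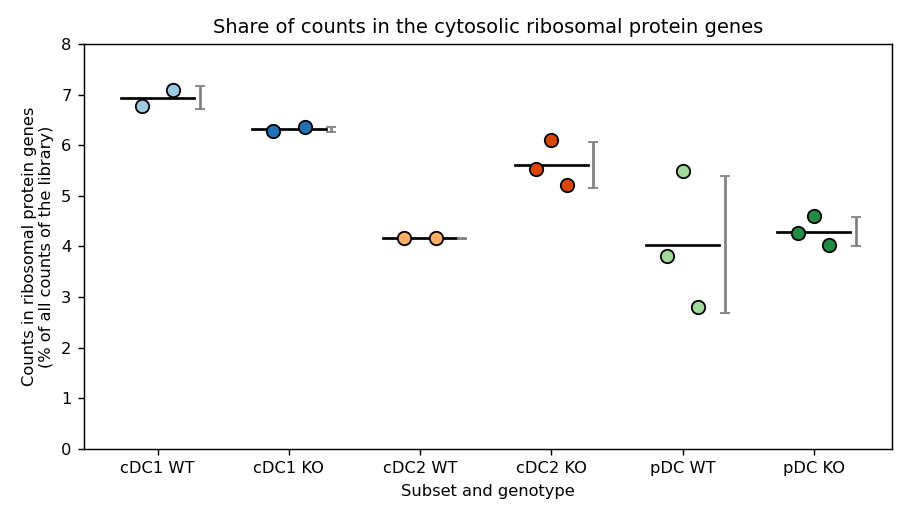
Share of all counts (%, y axis) in the 83 ribosomal protein genes in each library (points), by subset and genotype (x axis), with the group mean (black bar) and SD (grey). The cDC1 libraries lie at 6.28% to 7.10%, the cDC2 WT libraries at 4.17% and 4.16% and the cDC2 KO libraries at 5.21% to 6.10%.

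The first comparison asked how far the unperturbed subsets differ. Ribosomal protein mRNAs stood lower in WT cDC2 than in WT cDC1: 36 of 81 fell and 0 rose by edgeR's quasi-likelihood test at an adjusted p under 0.05 (Benjamini-Hochberg over all tested genes), where 4.98% of all tested genes passed as lower, 3.75% as higher and 8.73% in either direction. The median log2 difference of the members was −1.08, with 72 negative, against −0.05 over all tested genes. Groups did not overlap, with cDC2 lower, for 64 members, where the share over all genes was 30.5%. Of 49 large subunit members 16 fell (median −1.0), and of 32 small subunit members 20 fell (median −1.22).

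Rps28 (chr17:33819027-33824562, GRCm38, minus strand), a small subunit protein at the site where the mRNA leaves the ribosome, stood at 547 and 725 CPM in cDC1 WT and at 104 and 119 in cDC2 WT. Its log2 difference was −2.51 ± 0.38 (SE; adjusted p = 0.00116), and it held in all 25 alternative analyses (−2.65 to −1.81; adjusted p 1.41e-08 to 0.0331). Rpl11 (chr4:136028265-136053428, minus), which with Rpl5 and 5S RNA can bind and inhibit Mdm2, stood at 225 and 282 CPM in cDC1 WT and at 65.1 and 52.3 in cDC2 WT (−2.11 ± 0.30; adjusted p = 0.000611), again called in all 25. For both genes every cDC1 WT library was more than 3-fold above every cDC2 WT library. Rpl31 (chr1:39367842-39371911, plus), at the exit of the peptide tunnel, had 296 and 187 CPM in cDC1 WT against 58.3 and 28.3 (−2.48 ± 0.42; adjusted p = 0.00278). Rps27a (chr11:29545846-29548109, minus), made as a fusion with ubiquitin, had 1113 CPM in both cDC1 WT libraries against 367 and 331 (−1.67 ± 0.27; adjusted p = 0.00236). Other members among the 12 smallest p-values were Rps15a (−1.56), Rps15 (−1.48), Rps13 (−1.74), Rpl28 (−1.37), Rpl27a (−1.56) and Rps21 (−1.61), with adjusted p from 0.00384 to 0.00551.

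The stalk, the flexible arm that recruits translation factors, gave mixed readings. Its base Rplp0 had 592 and 483 CPM in cDC1 WT and 183 and 235 in cDC2 WT, and fell (−1.36 ± 0.32; adjusted p = 0.0138), a call lost without cDC1 WT 1 or cDC2 WT 1. Rplp1 had 498 and 494 CPM against 161 and 395 (−0.83 ± 0.38; adjusted p = 0.181). Rplp2 had 662 and 497 CPM against 603 and 1988 (1.16 ± 0.53; adjusted p = 0.179). The cDC2 WT libraries thus differed from each other by more than 3-fold in Rplp2, and the groups overlapped. Rpsa, the laminin receptor, also overlapped, with 529 and 705 CPM in cDC1 WT and 324 and 752 in cDC2 WT (−0.20 ± 0.46), as did Rps6, the target of the S6 kinases, with 762 and 805 CPM against 454 and 828 (−0.29 ± 0.35). Besides Rplp2, members with a positive difference included Rpl21, Rpl35, Rpl4, Rpl6, Rpl7l1, Rps23 and Rps27, and no member with a positive difference passed.

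The count of 36 leaned on the spread shared over all 15 libraries. With only the 4 libraries of the comparison in the fit, 3 members passed (Rps28, Rpl11 and Rpl37), and leaving out cDC1 WT 1, cDC1 WT 2, cDC2 WT 1 or cDC2 WT 2 gave 20, 20, 22 and 18 calls, of which 20, 20, 21 and 15 were among the 36. Ribosomal protein transcripts are short (median 637 bases against 1475 for protein coding genes), and the cDC2 WT libraries had the fewest genes detected among conventional subsets. With a per-library offset for transcript length and GC content, 23 members fell and the median was −0.67, against 0.08 over all genes. Sums of B cell, NK cell, erythroid and melanoma markers overlapped between the groups, but other sums moved with them. Thymocyte and T cell genes (16) summed to 206 to 249 CPM in cDC1 WT and 93.5 to 171 in cDC2 WT. In cDC2 WT 1 of these 16 was at 0. The 8 macrophage genes stood at 16.6 to 23.9 and 53.2 to 69.1 (none at 0). The 30 cell cycle genes stood at 1584 to 2054 and 2687 to 3423 (none at 0). For 10 thymic epithelium and stroma genes the sums were 33.5 to 46.4 and 128 to 293 (1 and 3 at 0). For 8 monocyte and neutrophil genes they were 221 to 465 and 547 to 1238 (3 and 2 at 0). Their part in the result was not tested.

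Members of pDC WT lay lower than those of cDC1 WT to a similar extent: 45 of 81 fell and 0 rose, where 14.8% of all tested genes passed as lower, 12.8% as higher and 27.7% in either direction. An unadjusted p under 0.05 was found for 51 members, where 38.3% of all genes stood. The median was −0.93 with 72 negative, against −0.05 over all genes, and 55 members had groups that did not overlap with pDC lower (29.4% over all genes). Large subunit members fell in 23 of 49 cases and small subunit members in 22 of 32. Of the members that fell, 32 also fell in cDC2 (88.9% of the cDC2 list and 71.1% of the pDC list). Both comparisons use the same 2 cDC1 WT libraries, so this overlap is not independent.

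In pDC WT, Rps28 was at 178, 122 and 106 CPM (−2.23 ± 0.32 against cDC1 WT; adjusted p = 6.14e-05). Rpl11 was at 83.0, 83.9 and 57.9 CPM (−1.76 ± 0.26; adjusted p = 6.48e-05), and Rps27a at 318, 455 and 329 CPM (−1.60 ± 0.24; adjusted p = 8.53e-05). For all 3 genes every pDC WT library lay below both cDC1 WT libraries. Rpl37, a small zinc-binding protein of the large subunit, was at 87.1, 47.0 and 35.5 CPM against 237 and 267 (−2.16 ± 0.38; adjusted p = 0.000355). Rplp0 was at 200, 232 and 124 CPM (−1.54 ± 0.28; adjusted p = 0.000543). The 12 smallest p-values also included those of Rps15 (−1.41), Rps19 (−1.60), Rps26 (−1.82), Rpl28 (−1.22), Rpl10a (−1.28) and Rps18 (−1.49). Of the 12, 10 (all but Rpl28 and Rpl10a) were also called in all 25 alternatives.

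Rps6, which overlapped between cDC1 and cDC2, was at 353, 354 and 224 CPM in pDC WT, below both cDC1 WT libraries and both cDC2 WT libraries (−1.34 ± 0.31 against cDC1; adjusted p = 0.00381). Rpl24, a large subunit protein that reaches towards the small subunit, was at 560, 693 and 482 CPM in pDC WT against 1099 and 1060 in cDC1 WT (−0.90 ± 0.28; adjusted p = 0.0236). Rplp1 (−0.67 ± 0.34), Rplp2 (0.27 ± 0.48) and Rpsa (−0.27 ± 0.41) did not pass. Leaving out cDC1 WT 2 gave 30 calls and leaving out cDC1 WT 1 gave 31, each with 30 of the 45, and median differences stayed between −1.13 and −0.71 whichever library was left out, and with the length and GC offset 30 fell (median −0.65). The 30 cell cycle genes summed to 403 to 547 CPM in pDC WT against 1584 to 2054 in cDC1 WT, and the 16 thymocyte genes to 538 to 618 CPM against 206 to 249, with none at 0 in either list and group. NK cell and erythroid sums overlapped, and other sums, in the same order, did not. Macrophage genes (8) had 6.46 to 10.9 against 16.6 to 23.9 CPM. Monocyte and neutrophil genes (8) had 787 to 1448 against 221 to 465, and stroma genes (10) 96.8 to 155 against 33.5 to 46.4. B cell genes (8) had 19.0 to 24.5 against 8.21 to 10.7, and melanoma genes (7) 4.95 to 18.8 against 1.82 to 3.99. The part of all these sums in the result was not tested.

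Between pDC WT and cDC2 WT the members differed little as a set: 2 rose and 3 fell of 81, where 11.4% of all tested genes passed as higher, 12.2% as lower and 23.6% in either direction. An unadjusted p under 0.05 was found for 10 members (35.4% of all genes). Groups did not overlap for 9 members with pDC higher (22.8% of all genes) and 6 with pDC lower (20.4%). The median was 0.09, against 0.07 over all genes. Rpl31 rose, from 58.3 and 28.3 CPM in cDC2 WT to 199, 169 and 132 in pDC WT (1.95 ± 0.39; adjusted p = 0.00134), and it kept this call in all 25 alternatives. Rps6 fell (−1.05 ± 0.31; adjusted p = 0.0214), with a call lost in 4 of the 25, among them leaving out cDC2 WT 2 or pDC WT 3. Rpl24 (−0.81 ± 0.28; adjusted p = 0.0454) and Rpl7l1 (−0.88 ± 0.29; adjusted p = 0.0354) fell with calls lost in 17 and 11 of the 25. Rpl3l, a paralog of Rpl3 known from striated muscle, had 0 counts in cDC2 WT and 50 in pDC WT (1.43, 4.77 and 0.227 CPM). Pooled over the group, pDC WT was at least 7.39-fold higher against a floor of 3 counts over cDC2 WT (0.279 CPM). Of the 50 counts 37 were in pDC WT 2, and pDC WT 3 lay below that floor. The floor covers counting error only, and the call of Rpl3l was lost in 11 of the 25.

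**Figure D2:**
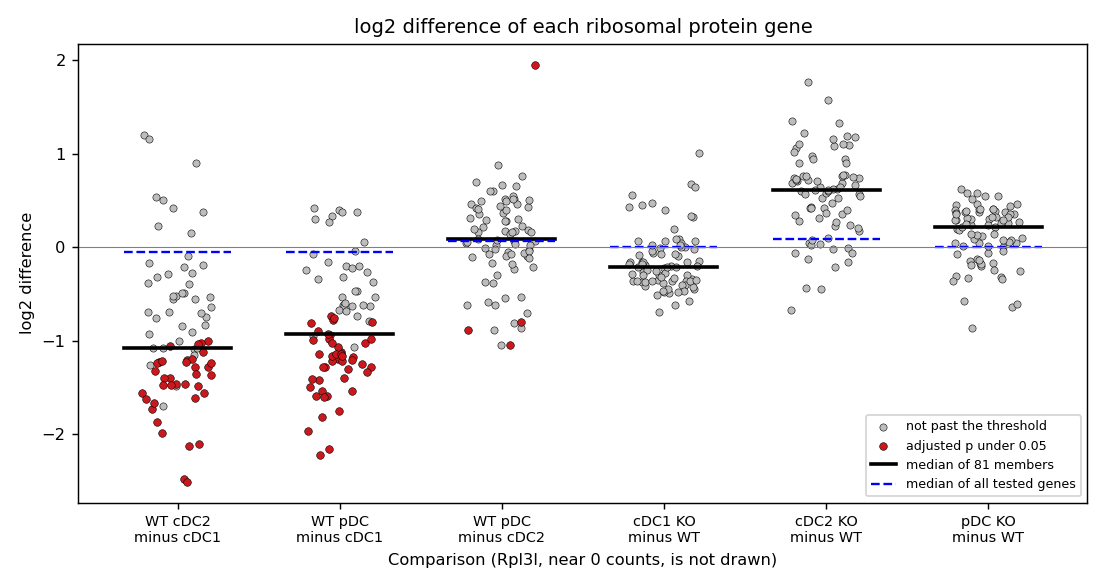
log2 difference (y axis) of each tested ribosomal protein gene (points) in 6 comparisons (x axis; Rpl3l, near 0 counts, is not drawn), red where the adjusted p is under 0.05, with the median of the 81 members (black bar) and of all tested genes (blue dashes). Medians lie at −1.08 and −0.93 for cDC2 and pDC against cDC1 in WT, and between −0.21 and 0.62 for KO minus WT, where no point is red.

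Members were also read against their own summed counts, which asks which of them departed from the rest. In cDC2 WT against cDC1 WT, 8 of 81 passed (14.8% of all tested genes passed under this scaling, which moves the median of all genes from −0.05 to 0.63). Of these, 2 were higher relative to the total, Rplp2 among them (1.84 ± 0.49; adjusted p = 0.0186). Its cDC2 WT libraries lay far apart, at 603 and 1988 CPM. Rps28 (−1.81), Rpl11 (−1.40), Rpl31 (−1.77), Rpl37 (−1.42), Rps26 (−1.16) and Rps27a (−0.97) were lower. In pDC WT against cDC1 WT, 14 passed (32.5% of all genes), with 2 higher, Rpl26 (1.08) among them, and 12 lower, led by Rps28 (−1.50), Rpl18 (−1.35), Rps26 (−1.19) and Rpl37 (−1.42). In pDC against cDC2, Rpl31 and Rpl3l were higher and Rps6 lower (19.7% of all genes passed). Rps28 and Rpl11 thus fell further than the members' total in both cDC2 and pDC, and no member passed in a KO comparison.

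**Figure D3:**
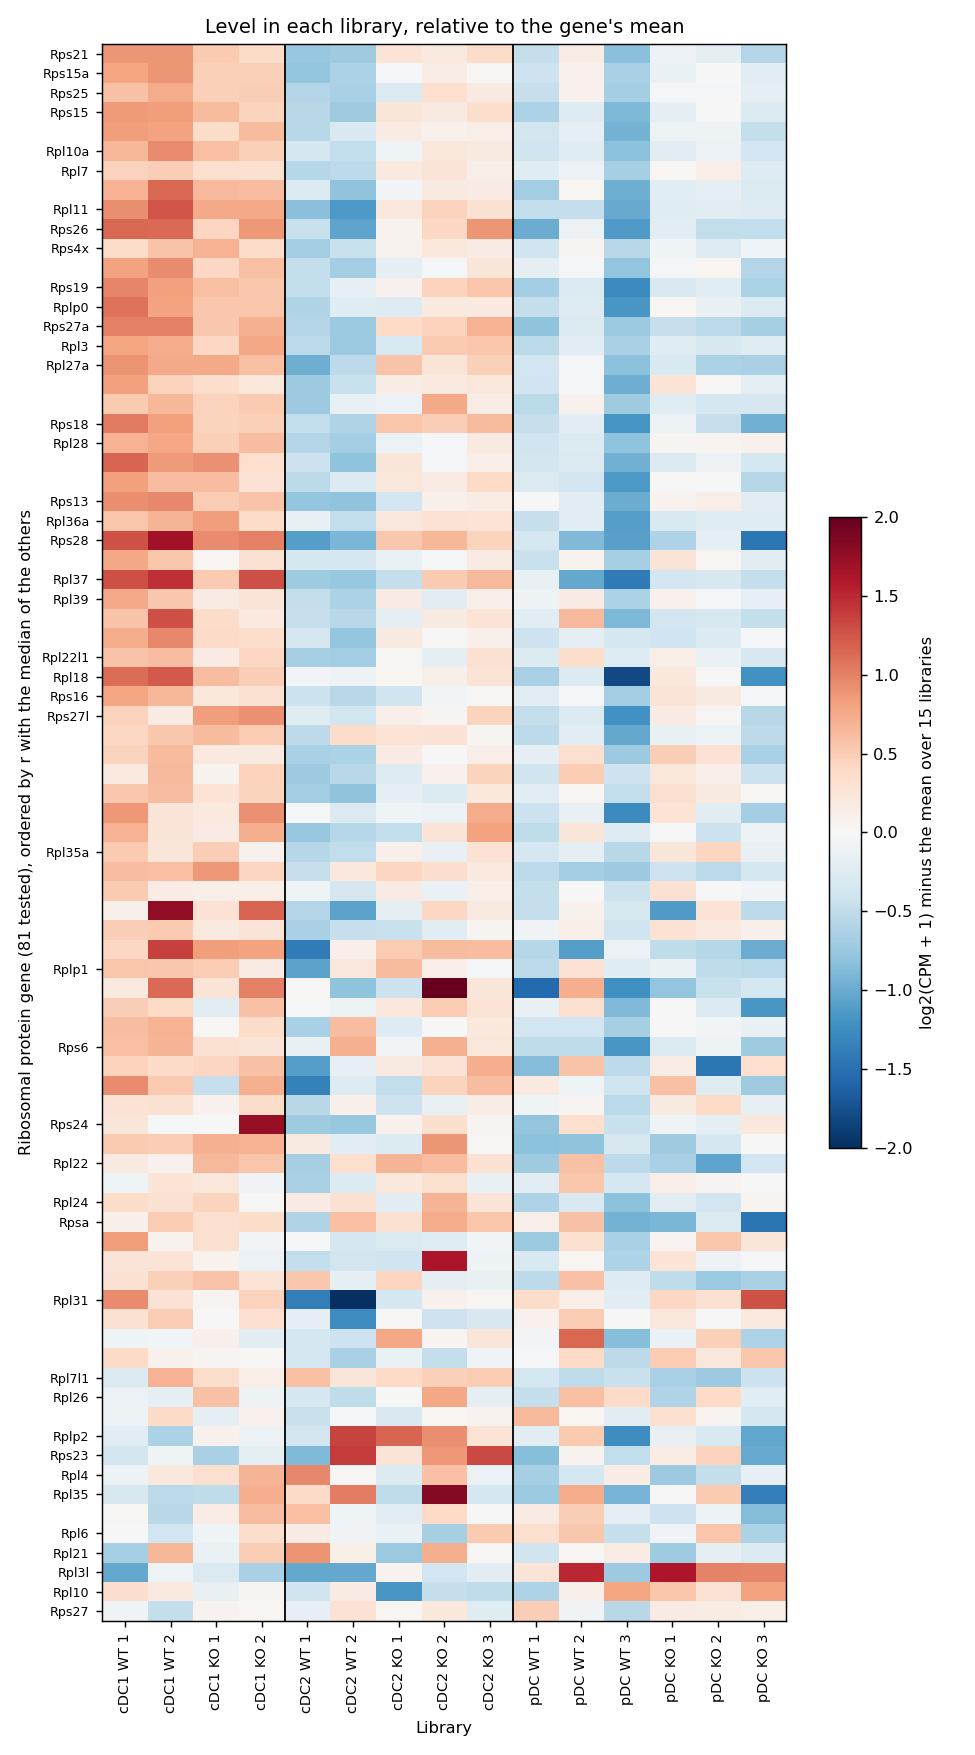
log2(CPM + 1) of each tested ribosomal protein gene (rows) in each library (columns) minus the gene's mean over 15 libraries, with colours cut at −2 and 2. Names are given for some rows, which are ordered by their correlation with the median of the other members. The upper rows are red in cDC1 and blue in cDC2 WT and pDC WT 3, and the lowest rows, Rpl10 and Rps27 among them, do not follow this.

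Across the 15 libraries most members followed one pattern. As a description, Pearson's r between a member and the median of the other members exceeded 0.9 for 24 members and 0.8 for 39, with a median of 0.78 over 81. The points share libraries, groups and scaling factors, so r carries no test. Most alike was Rps21 (0.977), followed by Rps15a, Rps25 and Rps15 (0.964, 0.964 and 0.963). Least alike were Rps27 (−0.15), Rpl10 (−0.15) and Rpl3l (−0.06), with Rpl21 (0.0067) and Rpl6 (0.056) close to 0. The group mean was highest in cDC1 WT for 51 of 81 members and lowest in cDC2 WT for 45. Of 83 members, 69 have at least 1 annotated pseudogene at least 98% identical over the last 100 coding bases, and 9 have 10 or more, such as Rpl21 with 24. How reads that fit several places were counted is not given in the sources used here, so the levels of such members are uncertain.

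Paralog pairs, in some of which one gene can take the other's place in the ribosome, gave separate readings. Rpl22, needed for the development of alpha beta T cells, overlapped between cDC1 WT (784 and 741 CPM), cDC2 WT (439 and 872) and pDC WT (427, 1047 and 485). Its paralog Rpl22l1 had 207 and 213 CPM in cDC1 WT and 86.9 and 85.7 in cDC2 WT and fell there (−1.28 ± 0.31; adjusted p = 0.0165), while in pDC WT it had 114, 177 and 116 CPM (−0.63 ± 0.27; adjusted p = 0.0977). The call for Rpl22l1 ended without any 1 of the cDC1 WT or cDC2 WT libraries. Rps27 ran from 9.97 to 21.7 CPM over all libraries with no difference past the threshold. Rps27l, a target gene of p53, had 212 and 171 CPM in cDC1 WT against 110, 125 and 65.4 in pDC WT and fell (−0.93 ± 0.30; adjusted p = 0.0281), a call lost without cDC1 WT 1, cDC1 WT 2 or pDC WT 3. Rpl3 fell in cDC2 (−1.40 ± 0.31; adjusted p = 0.0105) and in pDC (−1.22 ± 0.27; adjusted p = 0.00269), whereas Rpl3l reached at most 5.25 CPM in any library. Without cDC1 WT 1 or cDC2 WT 2 the call of Rpl3 in cDC2 was lost. Rpl7 fell in both (−1.03 and −0.80; adjusted p = 0.0241 and 0.0186). Rpl7l1 differed by 0.15 and −0.73 (adjusted p = 0.817 and 0.0696), and the paralogs were not tested against each other. Rpl39 and Rps4x fell in both as well, with log2 differences of −1.21 and −1.04 in cDC2 and −0.81 and −0.76 in pDC, and Rpl36a in pDC (−1.17; adjusted p = 0.00361). The calls of Rpl7, Rpl39 and Rps4x were each lost without any 1 of the cDC1 WT or cDC2 WT libraries in the cDC2 comparison. In the pDC comparison they were lost without cDC1 WT 1, cDC1 WT 2 or pDC WT 3, and those of Rpl39 and Rps4x also without pDC WT 1. Rpl10 stood at 4.42 to 20.3 CPM in all libraries, with no difference past the threshold.

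**Figure D4:**
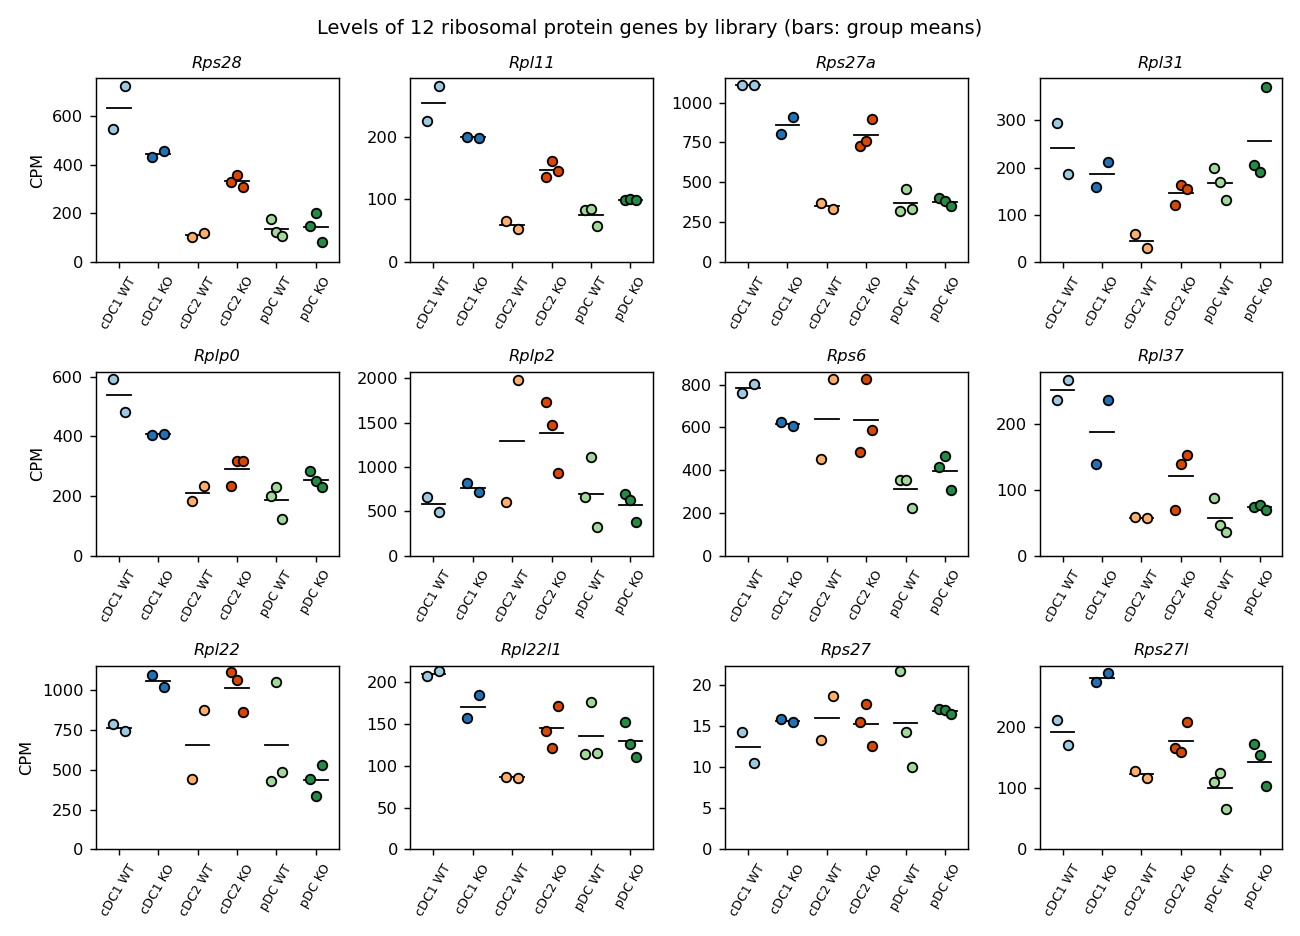
CPM (y axes, each from 0) of 12 ribosomal protein genes in every library (points) by subset and genotype (x axes), with group means (bars). Rps28, Rpl11 and Rps27a are high in both cDC1 groups, lowest in cDC2 WT and pDC, and between these by group mean in cDC2 KO, while Rplp2 and Rpl22 spread more widely within groups.

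Loss of LKB1 was compared within each subset. In cDC1, 0 of 81 members passed (edgeR's quasi-likelihood test, 0.0255% of all tested genes called), 1 had an unadjusted p under 0.05 (3.83% of all genes), and DESeq2 and limma voom also called 0. The median was −0.21 with 60 of 81 negative, against 0.00 over all genes. Groups did not overlap for 37 members with KO lower (17.8% of all genes) and 8 with KO higher (19.3%). Rps24 had 1634 and 5488 CPM in KO against 1925 and 1617 in WT (1.01 ± 0.43; adjusted p = 1), and cDC1 KO 1 lay between the WT libraries. Rplp0 had 404 and 409 CPM in KO against 592 and 483 (−0.40 ± 0.31), and Rps6 624 and 604 against 762 and 805 (−0.35 ± 0.35). Rps27l lay the other way, at 273 and 289 CPM against 212 and 171 (0.55 ± 0.34). None of these passed. The 12 cDC1 markers summed to 12795 to 12878 CPM in cDC1 WT and 8933 to 9489 in cDC1 KO. Of these markers, 10 had a negative difference and 2 a positive one. Thymocyte genes (16) summed to 206 to 249 CPM in WT and 113 to 188 in KO, with 1 at 0 in KO. Macrophage genes (8) summed to 16.6 to 23.9 and 36.3 to 46.0 CPM. Cell cycle genes (30) summed to 1584 to 2054 CPM in WT and 2194 to 3044 in KO, with 28 positive and 2 negative differences. NK cell genes (8) summed to 3.82 to 6.57 and 8.02 to 14.5 CPM. Sums of the other marker lists overlapped. The part of these marker differences in the result was not tested.

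In cDC2, 0 of 81 members passed by edgeR's quasi-likelihood test (0.0851% of all genes called higher, 0.0341% lower, 0.119% in all), with 36 at an unadjusted p under 0.05, where 13.3% of all genes stood. The median was 0.62 with 71 positive, against 0.09 over all genes, and groups did not overlap with KO higher for 50 members (23.1% of all genes). Small subunit members had a median of 0.71 and large subunit members of 0.57. Rpl11 had 135, 161 and 145 CPM in KO against 65.1 and 52.3 in WT (1.33 ± 0.27; adjusted p = 0.0582). Rps27a had 728, 762 and 895 CPM against 367 and 331 (1.19 ± 0.25; adjusted p = 0.0582), and Rps28 had 330, 357 and 309 against 104 and 119 (1.57 ± 0.34; adjusted p = 0.0644). For all 3 genes each KO library lay above both WT libraries and below both cDC1 WT libraries. Rpl31, at 120, 163 and 155 CPM against 58.3 and 28.3, was next (1.76 ± 0.39; adjusted p = 0.0648), and is named after its values were seen.

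DESeq2 called 6 members higher in cDC2 KO (Rpl11, Rps27a, Rps28, Rpl31, Rpl27a and Rps15), edgeR without a filter 3 (Rpl11, Rps28 and Rpl31), and limma voom 0. Leaving out 1 library gave 0 or 1 call and medians of 0.52 to 0.69. The 2 cDC2 WT libraries also enter the comparison with cDC1 WT, so a low level in them appears in both, for Rps28 as −2.51 and 1.57 and for Rpl11 as −2.11 and 1.33. Genes detected numbered 10840 and 11500 in WT against 12909 to 13797 in KO, and with the length and GC offset the median was 0.29, with 56 positive, where all genes had −0.13. Macrophage genes summed to 53.2 to 69.1 CPM in WT and 96.2 to 124 in KO (8 genes, none at 0), and thymocyte genes to 93.5 to 171 and 64.7 to 87.8 (16 genes, 1 at 0 in each group). The 12 pDC markers summed to 1569 to 2054 CPM in WT and 1305 to 1418 in KO (1 at 0 in KO), with 5 positive and 7 negative differences. Their part in the result was not tested. Members that stood near 0 in this comparison were Rplp2 (0.09 ± 0.48), Rps6 (−0.02 ± 0.32), Rpl24 (0.04 ± 0.28), Rpl7l1 (0.03 ± 0.29) and Rps27 (−0.07 ± 0.38). Rplp0, at 233, 317 and 317 CPM against 183 and 235, differed by 0.47 ± 0.29, Rplp1 by 0.56 ± 0.35 and Rpsa by 0.42 ± 0.42. Rpl3l had 0 counts in both WT libraries and 20 over the KO libraries. Pooled over the KO libraries, it was at least 2.71-fold above the floor of the WT group, with no call (adjusted p = 0.321).

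In pDC, 0 of 81 members passed by edgeR's quasi-likelihood test (0.0681% of all genes called, 0.0596% as higher), and DESeq2 and limma voom also called 0. An unadjusted p under 0.05 was found for 5 members (10.6% of all genes), and 5 had groups that did not overlap, with KO higher (5.76% of all genes), and 0 with KO lower (5.58%). These 5, named after their values were seen, were Rpl11, Rpl23, Rpl28, Rpl35a and Rps16. The median was 0.21 with 59 positive, against 0.00 over all genes, and it was 0.07 without pDC WT 3 and 0.41 without pDC WT 2, the WT libraries with the lowest and highest share. Rpl28 had 819, 819 and 833 CPM in KO against 596, 649 and 452 (0.54 ± 0.21; adjusted p = 0.411). Rpl35a had 726, 833 and 554 CPM against 486, 542 and 420 (0.54 ± 0.23; adjusted p = 0.429). Rpsa lay the other way, at 262, 403 and 178 CPM against 533, 744 and 257 (−0.86 ± 0.38; adjusted p = 0.435). The groups of Rpsa overlapped and those of Rpl28 and Rpl35a did not. Rplp0 (0.46 ± 0.26), Rplp1 (−0.26 ± 0.31), Rplp2 (−0.31 ± 0.43) and Rps6 (0.36 ± 0.28) did not pass.

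Averaged over the 3 subsets with equal weight, 0 of 81 members passed by edgeR's quasi-likelihood test (0.306% of all genes). An unadjusted p under 0.05 was found for 8 members (10.2% of all genes), and the median was 0.21, against 0.05 over all genes. This average joins subsets with medians of −0.21 in cDC1, 0.62 in cDC2 and 0.21 in pDC. The smallest p-values belonged to Rpl31 (0.67 ± 0.21; adjusted p = 0.278), Rps24 (0.71 ± 0.23; adjusted p = 0.292) and Rpl11 (0.46 ± 0.15; adjusted p = 0.295). DESeq2 and limma voom called 0, and edgeR without a filter called Rps24, whose high value in cDC1 KO 2 is given above.

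Whether the KO effect differed between subsets was tested as a difference of differences. For cDC2 minus cDC1, 0 of 81 passed by edgeR's quasi-likelihood test (0.00851% of all genes), 31 had an unadjusted p under 0.05 (8.46% of all genes) and the median was 0.83 with 70 positive, against 0.08 over all genes. Rpl11 (1.68 ± 0.39; adjusted p = 0.316), Rps27a (1.56 ± 0.36; adjusted p = 0.316) and Rps28 (2.09 ± 0.49; adjusted p = 0.319) had the smallest p-values. DESeq2 called these 3, limma voom called 0, and edgeR without a filter called Rps28 and Rpl31. For pDC minus cDC1, 0 passed with edgeR, DESeq2 or limma voom (0% of all genes with edgeR), 7 had an unadjusted p under 0.05 (8.26% of all genes) and the median was 0.46, against 0.00 over all genes. Among the smallest p-values there was that of Rps16 (0.91 ± 0.36; adjusted p = 0.494). For pDC minus cDC2, 0 passed with any of these tools (0% of all genes with edgeR), 11 had an unadjusted p under 0.05 (8.41% of all genes) and the median was −0.46, against −0.13 over all genes, led by Rpl27a (−1.33 ± 0.37; adjusted p = 0.358).

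Other genes of translation were read from lists. Over all tested genes, 4.98% passed as lower and 3.75% as higher in cDC2 WT against cDC1 WT, and 14.8% and 12.8% in pDC WT against cDC1 WT, and the counts of each list are given beside these shares as descriptions. Of 8 elongation factor genes, 3 fell in cDC2 WT against cDC1 WT and 5 in pDC WT, with 0 higher. Eef2, the translocase, had 779 and 841 CPM in cDC1 WT against 329 and 282 in cDC2 WT (−1.41 ± 0.26; adjusted p = 0.00384), and Eef1b2 (−1.65) and Eef1a1 (−1.28) fell with it. Of 36 initiation factor genes, 6 fell in cDC2 and 10 in pDC (1 rose in pDC), the eIF3 subunit genes Eif3f (−1.41), Eif3k (−1.36), Eif3l (−1.50) and Eif3h (−1.06) foremost in cDC2. Rack1, a scaffold protein of the small subunit outside the symbol rule, had 876 and 896 CPM in cDC1 WT, 382 and 328 in cDC2 WT and 342, 388 and 217 in pDC WT, and fell in both (−1.32 and −1.49; adjusted p = 0.0105 and 0.000332). Among 21 tested mRNAs, other than ribosomal protein genes, known to carry the pyrimidine run, 8 fell in cDC2 and 12 in pDC, with 0 higher. That list shares genes with the factor lists and holds Rack1.

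Genes that build ribosomes gave calls in both directions (all genes: 4.98% lower and 3.75% higher in cDC2, 14.8% and 12.8% in pDC). Of 43 tested genes for ribosome biogenesis and RNA polymerase I, 3 rose and 2 fell in cDC2 WT against cDC1 WT (median 0.21), and 4 rose and 8 fell in pDC (median −0.41). Ncl, the abundant nucleolar protein nucleolin, had 715 and 870 CPM in cDC1 WT against 2198 and 3317 in cDC2 WT (1.80 ± 0.35; adjusted p = 0.00504), and Nolc1 rose with it (1.60; adjusted p = 0.0160). Myc, which drives ribosome production, had 17.6 and 13.3 CPM in cDC1 WT against 1.43, 1.81 and 0 in pDC WT (−3.84 ± 0.67; adjusted p = 0.000355). Of 76 tested genes for mitochondrial ribosomal proteins, 1 rose (Mrps25, 1.64) and 5 fell in cDC2, among them Mrpl54 (−1.91), and 0 rose and 11 fell in pDC, with medians of −0.53 and −0.46, against −0.05 over all genes in both comparisons. The calls lower were near the shares of all genes, 4.98% and 14.8%. Of 17 tested genes listed under control of the translation of ribosomal protein mRNAs, 1 rose in cDC2 (Rps6ka5, 1.86). A place on that list does not show that a gene, such as Rps6ka5, controls these mRNAs. In pDC Eef2k (1.77) and Rps6ka1 (1.40) rose. Eif4ebp1, an mTORC1 target that blocks initiation, fell there (−3.65 ± 0.59, adjusted p = 0.000173 by edgeR's quasi-likelihood test). In KO minus WT, 0 genes of these lists passed by edgeR's quasi-likelihood test in any subset, with 18 of 76 mitochondrial members at an unadjusted p under 0.05 in cDC2 (13.3% of all genes), 0 in cDC1 (3.83%) and 5 in pDC (10.6%). The median of the mitochondrial members in cDC2 was 0.41, against 0.09 over all genes. Of the 43 ribosome biogenesis genes, 6 in cDC1, 3 in cDC2 and 7 in pDC had an unadjusted p under 0.05 by this test. Their medians were 0.32, −0.09 and −0.22, and in cDC1 33 were positive and 10 negative.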

How the data were processed

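Strand-specific 3′ tag libraries, made from barcoded oligo-dT primers per the labels' protocols, were sequenced for 15 samples in 6 groups. The authors deposited 1 table of raw read counts per gene, without molecular identifiers. STAR, HTSeq, DESeq2 and the mm10 build appear in the submitters' processing notes, with roles and versions not given in the sources used here.

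Genes were kept by edgeR's filterByExpr, and those left out held 0.0538% of counts. edgeR 4.0.16 (R 4.3.3) was run with TMM scaling and robust quasi-likelihood tests, two-sided, over all 15 libraries and 6 groups. P-values were adjusted by Benjamini-Hochberg over 11746 genes, with a threshold of 0.05. CPM used effective library sizes, and SE is the log2 difference over the square root of F. The fit was tested on simulated data. Alternatives were DESeq2 1.42.0, voom in limma 3.58.1, other scalings and filters, a length and GC offset, a replicate block and each library left out. Positions are from GENCODE and RefSeq (GRCm38).

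Genes named are up to 12 members per direction with the smallest p among called members with groups that did not overlap, or 3 where none passed, with the stalk members, Rpsa, Rps6 and paralog pairs throughout. Up to 4 members per direction are named under scaling by their own total, and up to 4 genes per list of other translation genes. Members and lists were chosen with earlier results of these data known. Other genes are named after their values were seen, and some genes are not reported here.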

Additional observations from a re-analysis of the deposited data

How the results depend on the processing

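Members called ranged from 0 to 6 in the KO comparisons and from 1 to 50 in the WT comparisons, and no called difference of a named member changed sign in any alternative run. Apart from leaving out a library, the alternatives kept 86 counts within 1.5 times and moved 13. A count of 0 that stayed at 0 was among those kept. Every KO comparison started from 0, so this tally is no measure of stability there. Scaled by the members' own total, calls went from 36 to 8 for cDC2 minus cDC1 in WT, from 45 to 14 for pDC minus cDC1 and from 5 to 3 for pDC minus cDC2, and medians to −0.36 and −0.24 for the first pair, 0.18 for cDC2 KO minus WT, 0.33 for the KO effect in cDC2 minus cDC1 and −0.058 for that in pDC minus cDC2. With the offset for transcript length and GC content, 23 were called for cDC2 minus cDC1, and the same medians were −0.67, −0.65, 0.29, 0.51 and −0.13. With only the groups of the contrast, 3 and 1 were called for cDC2 minus cDC1 and pDC minus cDC2, and voom called 1 for the latter. DESeq2 called 6 and the fit without a filter 3 for cDC2 KO, these gave 3 and 2 for the KO effect in cDC2 minus cDC1, and the fit without a filter 1 for the average. The cause of these shifts was not tested.

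With 1 library left out, calls ranged from 18 to 39 for cDC2 minus cDC1, from 30 to 50 for pDC minus cDC1, from 2 to 6 for pDC minus cDC2 and from 0 to 1 for cDC2 KO. Calls for pDC minus cDC2 were 2 without either cDC1 KO library, and 3 without cDC2 WT 2, cDC2 KO 3 or any pDC WT library. Medians ranged from −0.28 to −0.18, 0.52 to 0.69, 0.065 to 0.41 and 0.11 to 0.26 for KO minus WT in cDC1, cDC2, pDC and on average, from −1.16 to −1.0, −1.13 to −0.71 and −0.06 to 0.24 for the WT comparisons in the order above, and from 0.74 to 0.90, 0.35 to 0.64 and −0.57 to −0.25 for the differences of KO effects.

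Whether equal replicate numbers pair the samples is not given by the labels. Deviations of same-numbered WT and KO libraries correlated at −0.19 in cDC1, 0.11 and −0.08 in cDC2 and −0.06, 0.05 and −0.02 in pDC. Deviations within a group of 2 libraries mirror each other, so the values in cDC1 and cDC2 cannot decide the question. In pDC, libraries with different numbers correlated at −0.11 to 0.12, a range that held the same-numbered values. With a replicate block, 37, 40 and 2 members were called in the WT comparisons and 0 in each KO comparison. Low counts limit what can be read from Rpl3l, Rpl39l and Rpl10l, which are near 0. The same holds for Rpl27, Rpl15, Rpl10 and Rps27, with 613, 1040, 1239 and 1639 counts over all libraries. These have 4, 9, 6 and 3 near-identical pseudogenes, and why their counts are low was not tested.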
